A study of Homo sapiens with 4 samples.

Results

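The genes described here are the FOS and JUN families of AP-1 transcription factors together with 3 other rapidly inducible genes. They were taken by symbol from a table of 26603 genes: FOS, FOSB, FOSL1, FOSL2, JUN, JUNB, JUND, ATF3, EGR1 and IER2, and each of the 10 symbols matched a single row. The table comes from messenger RNA sequencing of PLC8024, a human liver tumour cell line, in 2 control and 2 drug libraries. No label names the drug, its dose or how long it was given. Nothing states that the libraries of a group are separate cultures; p-values therefore reflect the spread among these samples, which may be technical. Levels are FPKM, reads scaled for gene length and library total.

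AP-1 is a dimer of basic leucine zipper proteins. JUN proteins pair with each other or with FOS proteins, while FOS proteins need a JUN partner to bind DNA, so the mix of subunits sets which dimers can form. FOS, EGR1, IER2 and several relatives are immediate early genes, transcribed within minutes of growth factor or stress signals through MAP kinases, ternary complex factors and the serum response factor, and their messages are short-lived. In liver, JUN and its relatives are known for roles in hepatocyte proliferation, regeneration and tumour formation.

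Each library held between 28526098 and 40279560 gene reads, recovered from the table. Genes with exactly 2 reads (1857 to 3014 per library) outnumbered genes with exactly 1 (794 to 908). Whether both mates of a pair were counted is not given in the sources used here, so the independent fragments behind each read count, and behind the edgeR and DESeq2 calls made on them, can be fewer than printed. Hepatocyte lineage markers summed to 2968 and 2997 FPKM in the controls against 2381 and 2304 FPKM with drug. Of these 18 markers, 14 reached 1 FPKM. The others were TTR and APOB, at or near 0, AFP (0.372 to 0.449 FPKM) and EPCAM (0.143 to 0.317 FPKM). The lower sum came from the fibrinogen genes FGA (944 and 957 FPKM, then 762 and 721 with drug), FGB (556 and 549, then 295 and 274) and FGG (650 and 646, then 325 and 306). HNF4A, FOXA1, FOXA2, APOA2, AMBP, KRT8 and KRT18 were higher in both drug libraries than in both controls. ALB (3.15 and 3.23 FPKM, then 1.31 and 1.32) and APOA1 (17.5 and 17.1, then 14.3 and 15.4) were lower in both drug libraries. Of 5 immune markers 2 had a row, and lysozyme (LYZ) alone carried their sum of 181 and 184 FPKM in the controls against 283 and 287 FPKM with drug. The 5 fibroblast markers summed to 0.446 to 0.676 FPKM per library. Of the 4 endothelial markers 3 had a row, VWF and CDH5 were near 0, and PECAM1 made up nearly all of a sum of 4.69 and 4.16 FPKM in the controls against 2.11 and 2.23 FPKM with drug. The part of these shifts in the results was not tested. In bulk RNA, fewer cells of a type and less RNA per cell cannot be told apart.

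The promoters of these genes are shown first because cyclic AMP response elements (CRE) and related sites near the start are the textbook route by which many of them are switched on. RefSeq promoter windows (GRCh38.p14) were found for 9 of the 10 members, all but FOSL1, with 2 windows for ATF3. The 6-base CRE core TGACGT, or its reverse complement ACGTCA, was present within the 250 bases before the start of 5 members (FOS, FOSB, FOSL2, JUND and EGR1), against 7.10% of all 35116 windows of that length. In FOS, FOSB, FOSL2 and EGR1 the match nearest the start began 60 to 67 bases before it, and in JUN the related 8-base variant TGACATCA began 67 bases before it. The 30 bases around the match nearest the start are printed 5′ to 3′ on the gene's strand, with the match in capitals.

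FOS (chr14:75278753-75278782, plus strand): ggttgagcccgTGACGTttacactcattca

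FOSB (chr19:45467925-45467954, plus strand): caaggggcgggTGACGTaagcaggggggcg

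FOSL2 (chr2:28392781-28392810, plus strand): gagtctggggtTGACGTgagtgaatccaca

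EGR1 (chr5:138465401-138465430, plus strand): tatggccatgtACGTCAcgacggaggcgga

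JUND (chr19:18281691-18281720, minus strand): gcaaatgagcgACGTCAcccgcacccaatg

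JUN (chr1:58784096-58784125, minus strand): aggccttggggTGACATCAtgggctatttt

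ATF3 (chr1:212565273-212565302, plus strand): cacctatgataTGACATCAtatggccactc

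The variant TGACATCA or its reverse complement TGATGTCA was found in JUN and in 1 of the 2 ATF3 windows, against 2.37% of all windows. GENCODE 29 starts JUN, FOSL2, FOS and ATF3 further upstream than RefSeq does in the windows printed from here. The JUN and FOSL2 stretches lie inside the GENCODE gene spans. The FOS stretch crosses the GENCODE gene start, and the ATF3 stretch lies before it but closer than its RefSeq distance. JUND also held the full palindrome TGACGTCA, which contains both forms of the core, 200 to 193 bases before its start (1.65% of all windows). CArG boxes are the binding site of serum response factor. Within these 250 bases, EGR1 was the member with CArG boxes: it held 2 of them, against 1.16% of windows with any. Sequence further upstream was not searched, so boxes there would be missed in any member. The whole EGR1 window is printed to show its boxes between the CRE cores, with both motifs in capitals.

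EGR1 (chr5:138465229-138465478, plus strand): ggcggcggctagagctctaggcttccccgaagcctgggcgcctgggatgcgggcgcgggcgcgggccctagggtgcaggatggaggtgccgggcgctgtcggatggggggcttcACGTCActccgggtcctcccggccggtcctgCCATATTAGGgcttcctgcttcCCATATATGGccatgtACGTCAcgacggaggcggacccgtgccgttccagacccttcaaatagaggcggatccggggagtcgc

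No member window held the AP-1 element TGACTCA or its reverse complement TGAGTCA (4.20% of all windows), nor the EGR1 site GCGTGGGCG or its reverse complement CGCCCACGC (0.720%). These are matches of letters and not measured binding, and both strands were searched for each motif.

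**Figure D1:**
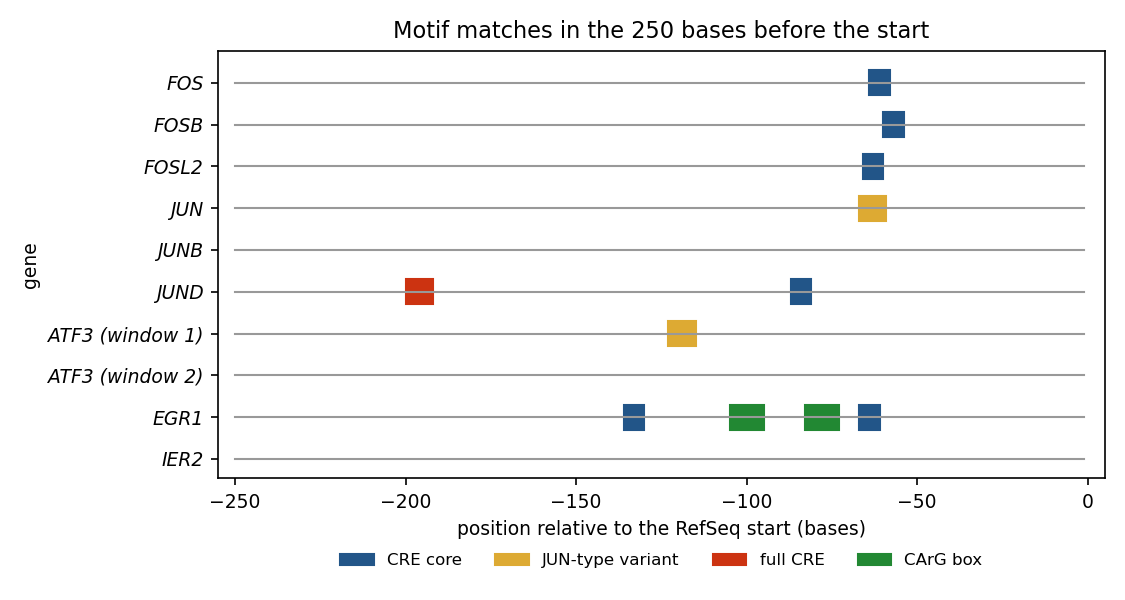
Motif matches in the 250 bases before the RefSeq start of 9 member genes, with distance from the start in bases on the x axis and 1 line per window. Coloured blocks mark CRE cores, the full CRE, the JUN-type variant and CArG boxes, and the matches nearest the start of FOS, FOSB, FOSL2, EGR1 and JUN sit at about the same distance.

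With drug, the AP-1 subunits did not move together. JUN and FOSL1 rose, while FOS, JUND and JUNB fell. At a limma adjusted p under 0.05 on log2(FPKM + 1), 2 of the 10 members were higher and 3 lower, a called share of 50% against 13.8% of the 11227 genes tested (7.78% higher and 6.02% lower). Both drug libraries lay above both controls for 4 members (40.3% of genes tested) and below both for 4 (23.3%), 8 in all against 63.5%. The members' median log2 fold change was 0.05 and that of all tested genes 0.04. The direction split of all genes depends on scaling, with 873 higher and 676 lower in FPKM and 540 higher and 836 lower after TMM scaling, which adjusts for differences in RNA make-up between libraries. After TMM scaling 2 members were again higher (4.81% of genes) and 3 lower (7.45%). On recovered reads edgeR called 3 members higher (8.37% of genes) and 4 lower (11%), adding EGR1 and FOSL2, and DESeq2 called as many (7.03% and 10.1%). Without the filter on low values the count of called members fell to 2, JUN and JUND, and that of all genes from 1549 to 384. Fewer members, and fewer of all genes, were also called with any library left out. Across those fits the log2 fold change ran from 0.48 to 0.56 for JUN and from -0.41 to -0.38 for JUND. It ran from -0.67 to -0.47 for FOS, 0.40 to 0.55 for FOSL1 and -0.22 to -0.15 for JUNB.

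**Figure D2:**
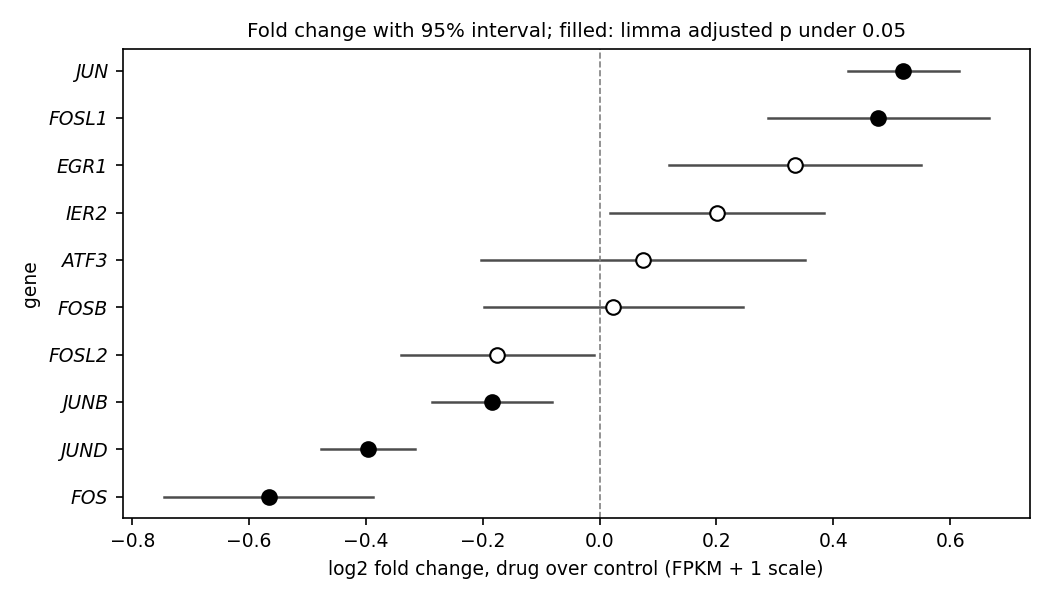
Log2 fold change of drug over control for the 10 members (x axis, log2(FPKM + 1) scale), with 95% intervals from limma. Filled points passed at an adjusted p under 0.05, and they run from FOS at -0.57 to JUN at 0.52.

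In the JUN family, JUN went up while both of its relatives went down. JUN (ENSG00000177606), the founding member and the subunit that trans-activates most strongly in the family, lies on chromosome 1 at 58780788 to 58784327 on the minus strand in GENCODE 29 (GRCh38) and has a single exon. Its level was 30.5 and 29.7 FPKM in the controls against 42.4 and 44.8 FPKM with drug, on 3153, 4155, 6193 and 6278 reads. Both drug libraries were well above both controls. The means went from 30.1 ± 0.570 to 43.6 ± 1.66 FPKM (SD, n = 2 libraries each), a 1.45-fold rise (limma log2 fold change 0.52, SE 0.04, adjusted p = 0.00361). JUN passed with each library left out in turn, with an adjusted p of at most 0.0230.

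JUND (ENSG00000130522), the subunit that is typically present in resting cells, lies on chromosome 19 at 18279760 to 18281622 on the minus strand. It measured 20.7 and 20.3 FPKM in the controls against 15.2 and 15.5 FPKM with drug. The groups were far apart relative to the spread within each. The mean fell from 20.5 ± 0.301 to 15.3 ± 0.214 FPKM (limma log2 fold change -0.40, SE 0.03, adjusted p = 0.00457), and JUND passed with each library left out.

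JUNB (ENSG00000171223), a subunit that can hold back JUN's activity as well as take its place, lies on chromosome 19 at 12791496 to 12793315 on the plus strand and has a single exon. It measured 33.0 and 34.8 FPKM in the controls against 29.1 and 30.4 FPKM with drug. The groups did not overlap, but the gap was smaller than for JUN or JUND. The mean fell from 33.9 ± 1.30 to 29.7 ± 0.917 FPKM (limma log2 fold change -0.18, SE 0.04, adjusted p = 0.0458). This call was lost whichever library was left out (adjusted p between 0.0775 and 0.152) and without the filter on low values (0.142). JUNB overlaps HOOK2 on the opposite strand, and since the sources used here do not say whether counting used strand, reads of the pair may not be separated.

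In the FOS family, the most abundant gene fell and the least abundant rose. FOS (ENSG00000170345), the prototype immediate early gene, lies on chromosome 14 at 75278774 to 75282230 on the plus strand. It measured 32.9 and 28.5 FPKM in the controls against 20.6 and 20.1 FPKM with drug, on 2994, 3508, 2650 and 2478 reads. Both drug libraries were below both controls, and the controls differed from each other more than the drug libraries did. The mean fell from 30.7 ± 3.13 to 20.4 ± 0.386 FPKM, 1.51-fold lower (limma log2 fold change -0.57, SE 0.07, adjusted p = 0.0121). FOS passed without either control but not without drug 1 (adjusted p = 0.0536), without drug 2 (0.0635) or without the filter on low values (0.0691).

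FOSL1 (ENSG00000175592), which encodes FRA1, a subunit that lacks the strong activation domain of FOS and accumulates in many invasive tumours, lies on chromosome 11 at 65892049 to 65900573 on the minus strand. It measured 2.38 and 2.76 FPKM in the controls against 3.84 and 4.08 FPKM with drug. It had the fewest reads of the 10 members, 128 and 201 in the controls against 292 and 298 with drug, and the groups were apart. The mean rose from 2.57 ± 0.269 to 3.96 ± 0.170 FPKM, 1.54-fold (limma log2 fold change 0.48 on the FPKM + 1 scale, SE 0.07, adjusted p = 0.0205). Its call held without control 2 (adjusted p = 0.0400) and was lost without control 1 (0.0729), drug 1 (0.0706) or drug 2 (0.0975), and without the filter on low values (0.0919).

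FOSL2 (ENSG00000075426), which encodes FRA2, the other FOS protein without a strong activation domain, lies on chromosome 2 at 28392448 to 28417312 on the plus strand. It measured 4.97 and 5.63 FPKM in the controls against 4.51 and 4.64 FPKM with drug. Both drug libraries were below both controls, but the gap between the groups was smaller than the controls' own difference. FOSL2 did not pass with limma (log2 fold change -0.17, 95% interval -0.34 to -0.01, adjusted p = 0.136), and was called lower by edgeR (adjusted p = 0.0277), run on the recovered reads.

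FOSB (ENSG00000125740), whose product resembles FOS closely in its DNA-binding part, lies on chromosome 19 at 45467995 to 45475179 on the plus strand. It measured 6.50 and 5.42 FPKM in the controls against 5.80 and 6.32 FPKM with drug. Both drug libraries lay between the controls. The log2 fold change was 0.02 with a 95% interval of -0.20 to 0.25 (limma adjusted p = 0.874), and its sign was negative after TMM scaling and with edgeR or DESeq2. FOSB overlaps the DNA repair gene ERCC1 on the opposite strand, which itself had 645 and 807 control and 925 and 880 drug reads.

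**Figure D3:**
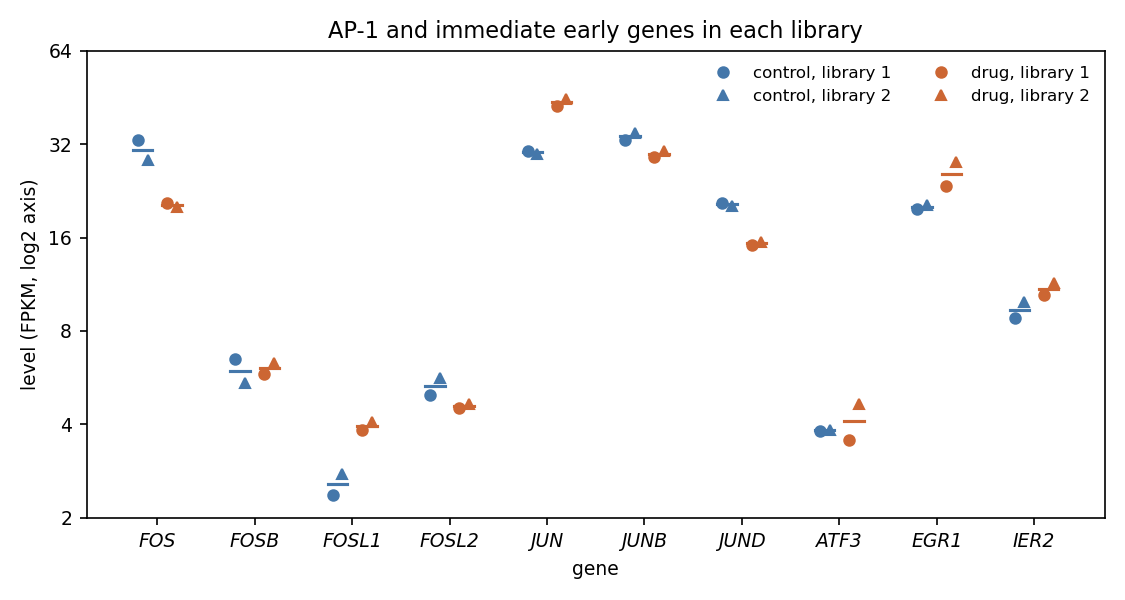
Level of each member in each library, in FPKM on a log2 axis, with circles and triangles for libraries 1 and 2 and bars for group means. Drug libraries lie wholly above the controls for JUN, FOSL1, EGR1 and IER2, wholly below for FOS, JUND, JUNB and FOSL2, and overlap for FOSB and ATF3.

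The opposite moves shifted the make-up of both families, and the summed level of the FOS family was lower with drug. The 3 JUN family genes summed to 84.2 and 84.8 FPKM in the controls against 86.7 and 90.6 FPKM with drug. JUN made up 36.2% and 35.0% of that sum in the controls against 48.9% and 49.4% with drug. JUND went from 24.6% and 23.9% to 17.5% and 17.1%, and JUNB from 39.2% and 41.1% to 33.6% and 33.5%. So JUN replaced JUNB as the leading JUN family message.

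The 4 FOS family genes summed to 46.8 and 42.3 FPKM in the controls against 34.8 and 35.1 FPKM with drug. FOS made up 70.4% and 67.4% of that sum in the controls against 59.3% and 57.2% with drug. FOSL1 went from a mean of 5.80% ± 1.01 to 11.3% ± 0.409 (SD, n = 2 each), while FOSL2 held 10.6% to 13.3% in the 4 libraries. In FPKM, FOS stood to FOSL1 at 13.9 and 10.3 to 1 in the controls against 5.38 and 4.93 to 1 with drug.

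Across the families, JUN and FOS were near parity in FPKM in control, with a JUN to FOS ratio of 0.926 and 1.04. That ratio was 2.05 and 2.23 with drug. The ratio of all JUN to all FOS family message was 1.80 and 2.00 in the controls against 2.49 and 2.58 with drug. Neither ratio overlapped between groups. All 10 members together summed to 163 and 161 FPKM in the controls against 159 and 170 FPKM with drug, and there the drug libraries lay on both sides of the controls. These sums and ratios are descriptions, since an exact permutation test of 2 libraries against 2 cannot give a two-sided p below 0.333.

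**Figure D4:**
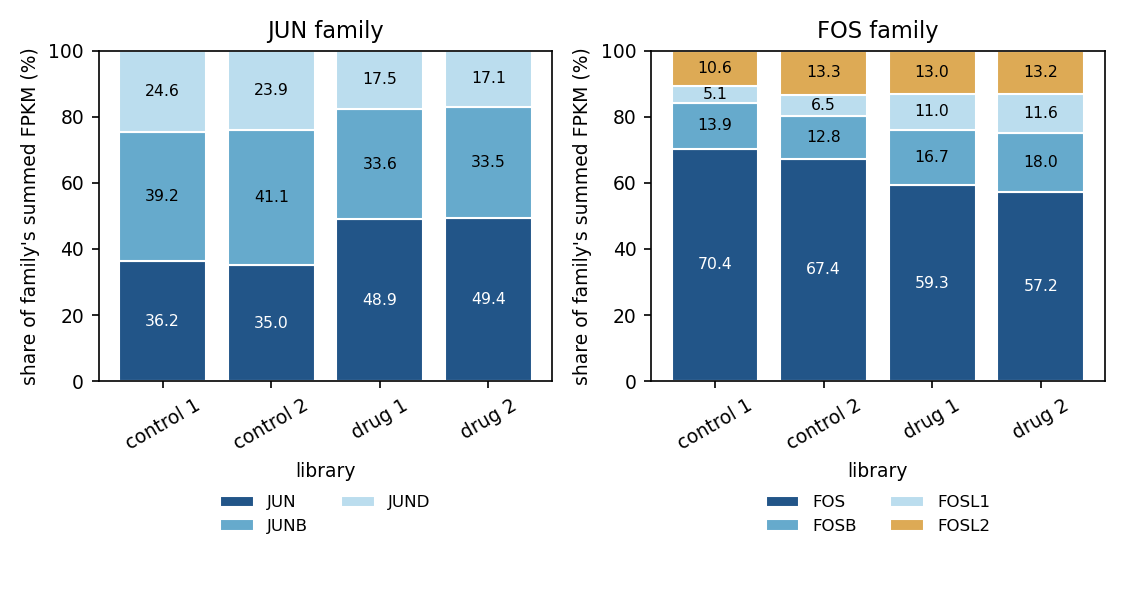
Share of each gene in the summed FPKM of its family (y axis, percent) in the 4 libraries. The JUN segment is larger and the JUND and JUNB segments smaller in both drug libraries, and the FOS segment shrinks while FOSL1 grows.

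The remaining members are not FOS or JUN proteins. EGR1 (ENSG00000120738), a zinc finger factor induced through the serum response factor, lies on chromosome 5 at 138465490 to 138469315 on the plus strand. It measured 19.8 and 20.4 FPKM in the controls against 23.4 and 28.0 FPKM with drug. Both drug libraries were above both controls, but they differed from each other more than 94.1% of tested genes did between these 2 libraries. EGR1 did not pass with limma (log2 fold change 0.33, 95% interval 0.12 to 0.55, adjusted p = 0.0630). It passed as higher with edgeR on recovered reads (adjusted p = 0.0134), without drug 1 (0.0246) and with a filter at 5 FPKM (0.0289).

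ATF3 (ENSG00000162772), a stress-induced basic leucine zipper protein that pairs with JUN proteins and often represses, lies on chromosome 1 at 212565334 to 212620777 on the plus strand. It measured 3.82 and 3.83 FPKM in the controls against 3.56 and 4.66 FPKM with drug. The controls were nearly equal and the drug libraries lay on either side of them, further apart than 95.8% of tested genes. The log2 fold change was 0.07 with a 95% interval of -0.20 to 0.35 (limma adjusted p = 0.668).

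IER2 (ENSG00000160888), a nuclear protein gene induced together with FOS in many cells, lies on chromosome 19 at 13150415 to 13154908 on the plus strand. It measured 8.78 and 9.95 FPKM in the controls against 10.4 and 11.4 FPKM with drug. The groups did not overlap, by a margin smaller than the spread within each. IER2 did not pass with limma (log2 fold change 0.20, 95% interval 0.02 to 0.38, adjusted p = 0.126) or with edgeR (adjusted p = 0.136).

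FPKM scales for length, here close to that of all annotated exons of a gene (3186 bases for FOS, which has 10 transcripts). Where a shorter transcript is the one expressed, the level is understated, so orders and ratios between genes are approximate. The order of levels also shifted. In control cells it ran JUNB, FOS, JUN, JUND, EGR1, IER2, FOSB, FOSL2, ATF3 and FOSL1, and the libraries of FOS and JUN, of JUND and EGR1, and of FOSB and FOSL2 overlapped. With drug it ran JUN, JUNB, EGR1, FOS, JUND, IER2, FOSB, FOSL2, ATF3 and FOSL1, and there FOSL2 overlapped with ATF3, and ATF3 with FOSL1. FOS went from the second place to the fourth and JUN from the third to the first. Replicates of some members also varied: the controls differed for FOS by 0.20 and for FOSB by 0.22 on the log2 scale, more than 90.8% and 92.1% of tested genes did.

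In the authors' deposited table, JUN (log2 fold change 0.50, adjusted p = 1.53e-28) and FOSL1 (0.59, 0.0317) were higher. FOS (-0.63, 3.35e-07), JUND (-0.45, 1.90e-07), JUNB (-0.23, 0.00496) and FOSL2 (-0.25, 0.0329) were lower there. In that table EGR1 had an adjusted p of 0.0515, and 7.21% of all its 26603 genes were under 0.05. Those 26603 include genes below the filter of 1 FPKM, so this share is not over the 11227 genes tested with limma. All 10 members carried the label for no change, as did nearly all genes: 42 were labelled up and 91 down.

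Genes around the AP-1 members were read from 5 lists. The first holds MAP kinases, RAS and RAF genes, ternary complex factors and serum response factor, which relay signals to immediate early promoters. Of its 25 tested genes, 2 rose and none fell with limma (median log2 fold change 0.01). This is a called share of 8.0%, against 13.8% of all genes tested. The risers were SRF, the factor that binds CArG boxes (16.8 ± 0.337 to 18.7 ± 0.238 FPKM, adjusted p = 0.0457), and the RAF kinase gene ARAF (15.7 ± 0.0607 to 18.6 ± 0.310 FPKM, adjusted p = 0.0148). Both lost their call whichever library was left out, and SRF also after TMM scaling (adjusted p = 0.0821). The MAP kinase gene MAPK3 (9.36 and 10.3 FPKM in the controls, 8.90 and 8.96 FPKM with drug) did not pass.

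Of 19 tested genes for related basic leucine zipper proteins, 4 rose and 2 fell (31.6% called against 13.8% of genes tested, median 0.04). The risers were ATF5 (6.60 ± 0.513 to 8.38 ± 0.258 FPKM), ATF6 (5.36 ± 0.0140 to 6.82 ± 0.142), a membrane-bound sensor of endoplasmic reticulum stress, CREB3 (42.1 ± 0.684 to 51.6 ± 1.89) and NFE2L1 (49.9 and 51.4 in the controls, 57.1 and 59.0 with drug). The small MAF gene MAFK fell from 22.8 ± 0.561 to 18.6 ± 0.779 FPKM and the amino acid response factor ATF4 from 144 ± 2.19 to 131 ± 0.637 FPKM. For these 6, limma gave adjusted p from 0.0121 to 0.0347. ATF4, ATF5, ATF6 and NFE2L1 lost their call whichever library was left out, CREB3 without control 1 or drug 1, and MAFK without control 1, control 2 or drug 1. ATF2, a usual JUN partner at CRE-type sites, did not pass (18.6 and 18.1 FPKM in control, 18.1 and 17.3 with drug).

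Other immediate early genes also went both ways: of 33 tested, 8 rose and 5 fell (39.4% called against 13.8% of genes tested, median 0.05). TIPARP, a target of the aryl hydrocarbon receptor, had 14.3 and 13.5 FPKM in the controls against 23.8 and 23.9 FPKM with drug (log2 fold change 0.73, limma adjusted p = 0.00147). CCN1, a matricellular protein gene, rose from 15.8 ± 1.05 to 26.2 ± 3.04 FPKM (adjusted p = 0.0124) and lost its call without control 1 (0.0591). The nuclear receptor genes NR4A1 (14.1 ± 0.768 to 8.64 ± 0.914 FPKM), NR4A2 (38.5 ± 0.342 to 32.2 ± 0.954) and NR4A3 (2.20 ± 0.131 to 1.52 ± 0.0900) fell, as did ID1 (345 ± 8.29 to 210 ± 10.4) and ID2 (137 ± 1.32 to 90.2 ± 3.21), whose products block basic helix-loop-helix factors. For these 5, limma gave adjusted p from 0.00163 to 0.0457. NR4A2 was no longer called without control 1, control 2 or drug 1, nor NR4A3 whichever library was left out.

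Of 26 tested genes from a list of textbook AP-1 and EGR1 targets, 4 rose and 8 fell (median -0.12). Calls made up 46.2% of those 26 genes, against 13.8% of all genes tested. DUSP6, the ERK phosphatase gene, fell from 14.9 ± 0.216 to 11.9 ± 0.151 FPKM (limma adjusted p = 0.00964). The keratin gene KRT18 rose from 161 ± 4.28 to 227 ± 8.40 FPKM (adjusted p = 0.00391) and the metalloprotease inhibitor gene TIMP1 from 1.83 ± 0.156 to 2.79 ± 0.278 FPKM (adjusted p = 0.0375). The growth factor genes AREG (41.1 ± 0.528 to 45.7 ± 0.528 FPKM) and EREG (17.0 ± 0.240 to 20.8 ± 1.45 FPKM) rose too. TIMP1 and AREG lost their call whichever library was left out, EREG without control 1, control 2 or drug 2, and DUSP6 without control 1 or drug 2. AREG also lost its call after TMM scaling (adjusted p = 0.0663). TIMP1 did not pass with edgeR (adjusted p = 0.0619) or DESeq2 (0.135) on recovered reads, nor with the replicate block (0.0787).

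The fifth list, of turnover and silencing genes, had 1 riser and 2 fallers among 19 tested (median 0.04). Its called share was 15.8%, against 13.8% of all genes tested. ZFP36L1, which binds AU-rich elements of unstable messages, rose from 14.8 ± 0.258 to 19.5 ± 0.996 FPKM (limma adjusted p = 0.0113) and lost its call without control 1 (0.0587). The corepressors of EGR1, NAB1 (25.8 ± 0.427 to 22.1 ± 0.120 FPKM, adjusted p = 0.0150) and NAB2 (12.3 ± 0.374 to 10.7 ± 0.108 FPKM, adjusted p = 0.0385), fell, and both lost their call whichever library was left out. NAB1 and NAB2 also count among the fallers of the target list, and ZFP36L1 among the risers of the immediate early list. COP1, part of a ubiquitin ligase for JUN, measured 25.3 and 24.4 FPKM in the controls against 24.7 and 25.2 FPKM with drug and did not pass.

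**Figure D5:**
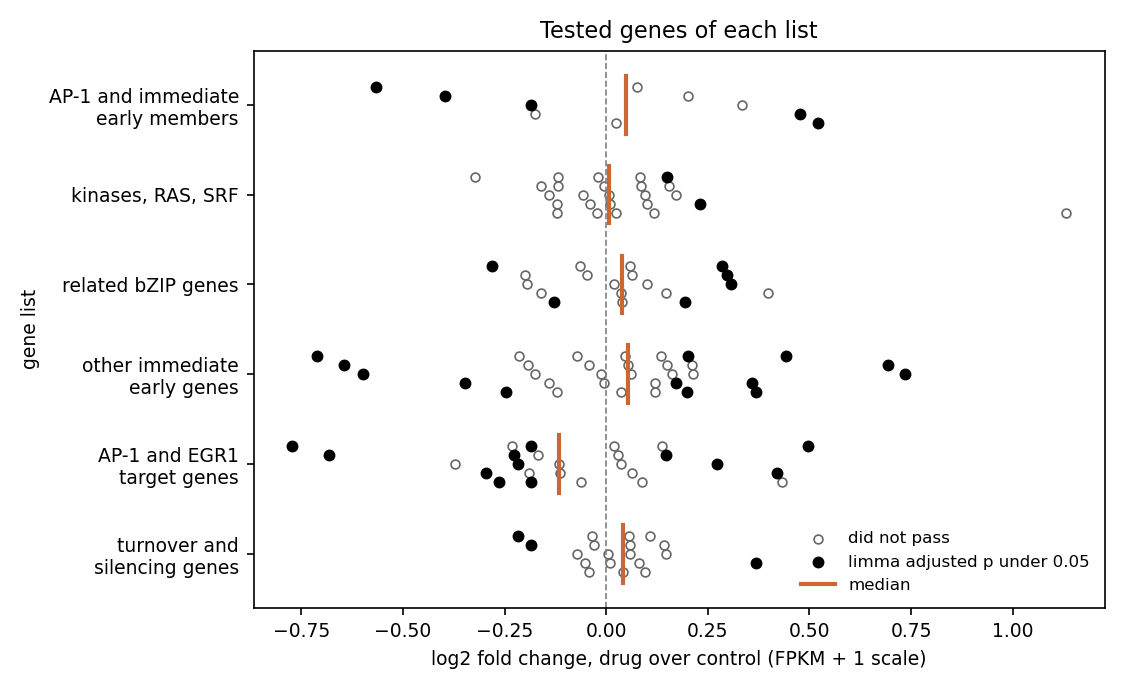
Log2 fold change of drug over control (x axis, log2(FPKM + 1) scale) for every tested gene of the members and of the 5 lists, with vertical bars at each median. Filled points passed limma at an adjusted p under 0.05, and in the members, the other immediate early genes and the targets they lie on both sides of 0.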

How the data were processed

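RNA was sequenced in 4 libraries of PLC8024 cells, with TruSeq stranded mRNA preparation per the labels. The submitters' processing notes name bcl2fastq and hg38; which aligner, read counter, gene annotation or test the authors used is not given in the sources used here. Per-library FPKM values, made by the authors, have no unit in the header and were recognised from the values (median ratio of implied to GENCODE 29 exon length 1.00). The deposited group columns are a signal, mean reads divided by size factors. The deposited log2 fold changes, p-values and adjusted p-values are the authors' own comparison. Combining FPKM and group means gave whole reads, with 100% of values within 0.1 read. On simulated data (24596 genes), 100% came back exactly.

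The 11227 genes whose mean reached 1 FPKM in either group entered limma 3.58.1 with its trend option, on log2(FPKM + 1), and p-values were adjusted over them by Benjamini-Hochberg; all 10 members passed this filter. In data simulated for this comparison (11002 genes), limma found 4.08% of the genes given a 1.25-fold change, 55.1% of those given 1.5-fold, 73.5% for 2-fold and 92.0% for 4-fold. Other settings tried were a pseudocount of 0.1 or 0.01, dropping the filter, filtering at 5 FPKM, a replicate block, TMM-scaled FPKM, edgeR 4.0.16 and DESeq2 1.42.0 on recovered reads, and each library left out, where the lone library is assumed to vary like the other group. Members, lists and motifs were chosen with earlier results of these data known. All members are named. From each list up to 4 called genes averaging 2 FPKM or more, with groups apart, were named by largest change. Where a list had 5 or fewer risers or fallers, others of them could be named too. Results for some list genes are not reported here. MAPK3, ATF2, COP1 and the genes in the closing section were named outside that rule, after their values were seen. Scripts ran in R 4.3.3 and in Python 3.11.15 (pandas 2.3.3, matplotlib 3.10.9, numpy 2.4.6).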

Additional observations from a re-analysis of the deposited data

How the results depend on the processing

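With limma on FPKM, 1549 genes and 5 members were called. Without the filter on low values 384 genes and 2 members were called, and with each library left out 420 to 613 genes and 2 to 4 members. The 2 pseudocounts, TMM scaling, edgeR and DESeq2 kept both counts within 1.5 times. With the replicate number as a block 925 genes were called, 474 higher and 451 lower, and the same 5 members passed. Deviations of same-numbered libraries correlated at 0.03 across genes. A correlation over all genes cannot show whether a shared batch moved some of them, and no label pairs the libraries beyond the number. FOSB, which was not called, turned from 0.0238 to -0.0116 with TMM scaling, -0.0146 with edgeR and -0.0143 with DESeq2, and ranged from -0.0875 (without control 2) to 0.135 with a library left out. ATF3, from 0.0750, ranged from -0.0804 (without drug 2) to 0.230. Of the other settings of member fold changes, 94 kept direction and call, 12 lost and 6 gained a call. Counts of the 5 lists moved by more than 1.5 times in 27 of 60 settings. FOSL1 and ATF3 have too low a level for the filter at 5 FPKM and were not tested there.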

Other observations

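Some genes of the lists were listed far below their neighbours in role. IER3, an immediate early gene, had 0.0779 FPKM or less in each library, and ATF6B had 0.0193 and 0.0214 FPKM in the controls against 0.0410 and 0.0997 FPKM with drug while its relative ATF6 stood above 5 FPKM. HRAS was listed at 0.202 and 0.149 FPKM in the controls and 0.531 and 3.33 FPKM with drug (limma adjusted p = 0.178, edgeR adjusted p = 0.0179), beside NRAS at 80.1 to 84.3 FPKM. SIK1, an immediate early kinase gene, split the drug libraries at 8.12 and 4.11 FPKM around controls of 5.56 and 5.75 FPKM.

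Of the classical AP-1 protease and cytokine targets, MMP1 (0.254 FPKM at most), MMP9 (0.0443 FPKM at most) and IL6 (0.0243 FPKM at most) stayed below the filter. CXCL8, the interleukin 8 gene, was abundant and fell from 45.6 ± 1.98 to 37.8 ± 1.26 FPKM (limma adjusted p = 0.0230). Leaving out control 2, drug 1 or drug 2 ended that call. These genes were picked after their values were seen.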
